A study of Mus musculus with 111 samples.

Results

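The 40 genes described here act at the G2-to-M transition, in meiotic M phase and in mitosis. They were chosen by name, by a rule that uses no measured value but was written with earlier results of these data known, and they are 40 of 36134 genes with an identifier in the count table. All 40 were among the 13444 genes that passed the filter on low counts. RNA was read from single mouse embryos at the 2-cell stage, 56 control and 55 knockdown, by SmartSeq2, a full-length method that primes complementary DNA from the poly(A) tail. Every embryo came from an oocyte of the B6129F1 strain that was injected while still arrested in prophase of meiosis I, held for 5 h in medium with dibutyryl cAMP, released into 12 h of maturation, fertilized in vitro and grown in KSOM. Knockdown oocytes received 2 siRNAs against Nr5a2 at 20 µM each with RNA for H2B-rsEGFP as injection marker. Control oocytes (embryos titled NT) received the control injection with RNA for H2B-EGFP. The labels list 2 siRNAs at 20 µM each for the control embryos as well, and both markers were at 150 ng/µl. The arms therefore differ in the marker as well as in the siRNA, and these cannot be told apart. The labels used here give no animal age. Experiment 1 had 24 control and 16 knockdown embryos, experiment 2 had 7 and 16, and experiment 3 had 25 and 23.

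Nr5a2, an orphan nuclear receptor that binds and opens chromatin at the onset of embryonic transcription, was the target. Its level was 109 ± 48.6 CPM (counts per M of the scaled library total; SD, n = 56) in control embryos and 48.4 ± 19.7 CPM (n = 55) in knockdown embryos. The knockdown embryos were lower by a log2 change of -1.17 (SE 0.12, adjusted p = 3.55e-12 by edgeR). Library totals ran from 1.97 to 21.4 M counts, with a median of 4.98 M for the control arm, 4.54 M for the knockdown arm, and 4.63, 3.72 and 5.34 M in experiments 1 to 3. Zfp352 and Usp17lb, which mark the 2-cell stage, and Tcl1 and Dppa3, oocyte transcripts, had counts in every embryo. Markers of other cells were low: the sum over 15 cumulus and granulosa genes had group medians of 19.5 to 32.3 CPM, with 10 of the 15 (Fshr, Amh and Inha among them) at a median of 0 and Kitl (9.08 CPM, in every embryo) and Tnfaip6 (4.80 CPM) the highest, and the sum over 10 sperm genes had group medians of 3.67 to 7.76 CPM. No pair of embryos held identical counts. Nothing in the labels says which embryos shared a mother or litter, and the p-values reflect only how far individual embryos spread. A whole embryo is read at once, so fewer cells of a kind and less RNA per cell cannot be told apart.

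M phase is driven by Cdk1 bound to B-type cyclins. Wee1 and Wee2 hold the complex off by phosphorylation, the Cdc25 phosphatases release it, and in the oocyte Wee2 and cAMP keep prophase arrest while Mos holds the arrest of metaphase II. Exit runs through the anaphase-promoting complex (APC/C), a ubiquitin ligase that Cdc20 or Fzr1 directs to cyclin B and securin once the spindle checkpoint is satisfied. Most of these RNAs are stored in the growing oocyte and are in part polyadenylated, translated and degraded during maturation, and the zygote's own genome is switched on from the late 1-cell to the 2-cell stage. A library primed from poly(A) tails reads the RNA level and tail together.

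Many of these genes carry the same pair of elements in front of the start site, the cell cycle genes homology region (CHR, searched as TTTGAA or TTCGAA) and the CCAAT box (CCAAT), the known landing sites of the MuvB-type complexes and of NF-Y. Promoters of 33 of the 40 genes were matched in RefSeq sequence of the GRCm38.p6 build, each 300 bases long from 250 before to 50 after the start. Those of Cdc25c, Kif20a, Wee1, Mos, Tpx2, Aurkb and Incenp were not matched. Counting both strands, a CHR was found in 23 of the 33 (69.7%), against 21.7% of 27025 genes in the same table. A CCAAT box was found in 26 of the 33 (78.8%), against 41.1%. The motif AAGGTCA, a half-site bound by NR5A receptors, was in 0 of the 33 against 5.38%, which says only that these letters are not in this window. No letters are shared by overlapping matches of CHR and CCAAT.

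These promoters are shown because their genes lead the results below: the first 7 belong to genes that rose and fell together from embryo to embryo, and the last 4 to genes that ran opposite to them. Both sets include genes with and without a CHR. Each line gives the 100 bases before the RefSeq start, 5′ to 3′ on the gene's own strand, with CHR and CCAAT letters on either strand in capitals (TTCAAA and ATTGG are their reverse complements).
Cdk1 (chr10:69352913-69353012, minus strand): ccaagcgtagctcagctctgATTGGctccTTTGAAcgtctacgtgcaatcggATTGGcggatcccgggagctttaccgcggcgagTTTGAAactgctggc
Cdc20 (chr4:118437344-118437443, minus strand): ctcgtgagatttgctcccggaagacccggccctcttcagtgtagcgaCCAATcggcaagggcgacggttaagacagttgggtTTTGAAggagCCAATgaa
Espl1 (chr15:102296193-102296292, plus strand): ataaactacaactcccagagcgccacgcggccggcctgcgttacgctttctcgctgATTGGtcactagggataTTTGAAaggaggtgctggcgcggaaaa
Ube2c (chr2:164769829-164769928, plus strand): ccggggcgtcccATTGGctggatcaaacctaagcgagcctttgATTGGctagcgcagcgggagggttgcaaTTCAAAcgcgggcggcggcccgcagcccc
Kif11 (chr19:37376282-37376381, plus strand): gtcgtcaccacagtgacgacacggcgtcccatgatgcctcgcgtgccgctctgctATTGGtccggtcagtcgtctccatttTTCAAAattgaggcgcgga
Ccnf (chr17:24251410-24251509, minus strand): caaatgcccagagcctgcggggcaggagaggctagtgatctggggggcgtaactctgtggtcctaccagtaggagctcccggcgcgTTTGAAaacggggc
Nek2 (chr1:191821373-191821472, plus strand): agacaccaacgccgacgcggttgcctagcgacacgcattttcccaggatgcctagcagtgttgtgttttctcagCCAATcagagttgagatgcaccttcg
Wee2 (chr6:40442763-40442862, plus strand): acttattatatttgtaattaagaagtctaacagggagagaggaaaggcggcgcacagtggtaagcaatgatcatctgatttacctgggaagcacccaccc
Nuf2 (chr1:169531465-169531564, minus strand): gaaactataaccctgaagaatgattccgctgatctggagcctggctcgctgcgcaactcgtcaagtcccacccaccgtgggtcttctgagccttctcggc
Cdc25b (chr2:131186848-131186947, plus strand): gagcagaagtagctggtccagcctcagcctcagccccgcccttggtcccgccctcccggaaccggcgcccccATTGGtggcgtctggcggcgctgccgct
Ttk (chr9:83834589-83834688, plus strand): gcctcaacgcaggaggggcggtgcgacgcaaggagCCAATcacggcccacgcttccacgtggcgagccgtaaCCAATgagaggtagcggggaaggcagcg
In Cdk1, Cdc20, Espl1, Ube2c and Kif11 a CHR lies downstream of a CCAAT box within these 100 bases, with its first base 15, 18, 27, 29 and 19 bases before the start. Ccnf has its nearer CHR at 14 bases before the start and its CCAAT boxes farther out. Nek2 has CCAAT boxes but no CHR in its 300 bases, and the same holds for Ccnb1 (not printed). Of the opposite set, Nuf2 has neither element and Wee2 no CHR in the 300 bases, whereas Cdc25b and Ttk have CCAAT letters above and a CHR just after the start, beyond the stretch shown. The Wee2 window (chr6:40442613-40442912) lies inside the gene as annotated in GENCODE M21, which starts at 40439088. So does the window of Kif2c (chr4:117178723-117179022, not printed), counted above with a CHR, whose gene on the minus strand starts at 117182639. The bases before these annotated starts were not searched.

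The 40 genes were abundant in the 2-cell embryo. Their median level in control embryos was 57.4 CPM per kb of transcript, against 9.85 over the genes tested, and 38 of the 40 lay above that median. Levels between genes are compared per kb only, and the values given per gene elsewhere are CPM not divided by length.

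**Figure D1:**
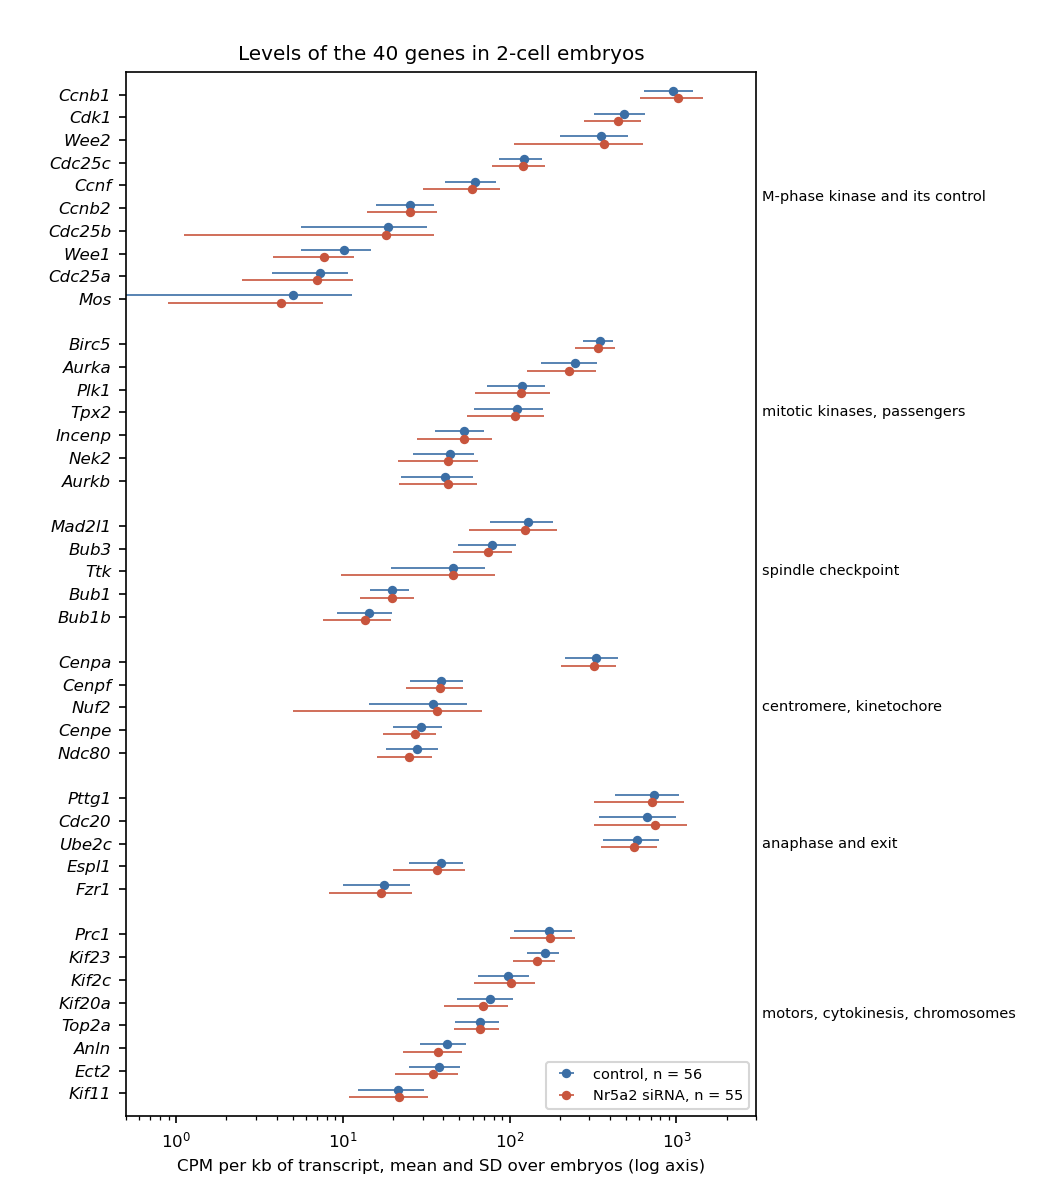
Level of each gene (CPM per kb of transcript, log axis) in control (blue, n = 56) and Nr5a2 knockdown embryos (red, n = 55), grouped by role; points are means and bars are SD over embryos (for Mos in control embryos the SD exceeds the mean and the bar runs off the axis). Ccnb1 is highest at 951 CPM per kb and Mos lowest at 5.03, and the bars of the arms overlap for all 40 genes.

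On mm10 (GENCODE M21) Ccnb1 (ENSMUSG00000041431) lies at chr13:100778650-100786570, Cdk1 at chr10:69335146-69352938, Cdc20 at chr4:118432901-118437352, Ccnf at chr17:24222198-24251484, Wee2 at chr6:40439088-40466813 and Cdc25b at chr2:131186949-131198497, and counts are of their spliced transcripts. The highest level per kb belonged to Ccnb1, cyclin B1, at 951 ± 311 CPM per kb (SD, n = 56 control embryos). Pttg1 followed at 730.1 ± 304, Cdc20 at 670.2 ± 328, Ube2c at 578 ± 213 and Cdk1 at 485 ± 165 CPM per kb. Neighbours in this order did not separate embryo by embryo: Ccnb1 stood above Pttg1 in 39 of 56 control embryos, Pttg1 above Cdc20 in 32, Cdc20 above Ube2c in 38 and Ube2c above Cdk1 in 45. Of these 5 genes, 4 make the switch out of M phase and its substrates: Pttg1 is securin, Cdc20 the activator and Ube2c the ubiquitin-loading enzyme of the APC/C, and cyclin B1 its target. At the other end stood Wee1 at 10.2 ± 4.56, Cdc25a at 7.27 ± 3.52 and Mos at 5.03 ± 6.37 CPM per kb.

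Among Cdk1 and its controllers, single genes of a family differed widely in level. Cyclin B1 exceeded cyclin B2 (Ccnb2, 25.4 ± 9.64 CPM per kb), and Wee2, the oocyte form of the inhibitory kinase, stood at 355 ± 155 where its somatic relative Wee1 stood at 10.2. Of the activating phosphatases, Cdc25c was highest at 121 ± 35.3, with Cdc25b at 18.7 ± 13.1 and Cdc25a at 7.27. Ccnf, cyclin F, the F-box subunit of a ubiquitin ligase, stood at 61.7 ± 20.9 CPM per kb.

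The mitotic kinases and the chromosomal passenger complex covered a narrower range. Birc5 (survivin), a passenger subunit, was highest at 346 ± 72.6 CPM per kb. Aurora A (Aurka, 245 ± 90.0), its activator Tpx2 (109.9 ± 48.6) and Plk1 (118 ± 45.1) stood above the other passengers Incenp (53.2 ± 17.4) and Aurora B (Aurkb, 41.1 ± 18.9), and Nek2, a centrosomal kinase, was at 43.8 ± 17.4. The checkpoint genes ran from Mad2l1 (129 ± 52.2) and Bub3 (78.7 ± 29.8) to Ttk (45.4 ± 25.9), Bub1 (19.7 ± 5.06) and Bub1b (14.4 ± 5.19). Cenpa, the histone H3 variant of centromeres, stood at 331 ± 116, and the kinetochore genes Cenpf (38.7 ± 13.5), Nuf2 (34.9 ± 20.6), Cenpe (29.5 ± 9.67) and Ndc80 (27.7 ± 9.48) well below it.

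Among the genes of anaphase, separase (Espl1), the protease that securin inhibits, stood at 38.9 ± 13.9 and Fzr1, the second APC/C activator, at 17.6 ± 7.57 CPM per kb. The cytokinesis genes Prc1 (172 ± 65.5) and Kif23 (163 ± 35.3), which bundle midzone microtubules, exceeded Kif20a (76.4 ± 27.9), Anln (41.8 ± 13.0) and Ect2 (37.6 ± 12.6). The microtubule depolymerase Kif2c was at 97.6 ± 33.1, topoisomerase II alpha (Top2a) at 66.5 ± 19.3 and the bipolar-spindle motor Kif11 at 21.4 ± 9.20.

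Knockdown of Nr5a2 was followed by no called change in any of the 40 genes. In edgeR's quasi-likelihood test with experiment as covariate, 0 of 40 passed an adjusted p of 0.05, where 1.1% of the 13444 genes tested did, and DESeq2 called 0 as well. Before adjustment 6 of the 40 (15%) had p under 0.05, against 9.52% of all genes, and all 6 had negative fold changes: Wee1, Ccnf, Anln, Espl1, Kif20a and Kif23. Estimates for 30 of the 40 were below 0 and for 10 above, with a median log2 fold change of -0.09 beside 0.02 over all genes tested. The split depended on the scaling: 37 were below 0 with library totals and 27 with oocyte transcripts as the scale.

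**Figure D2:**
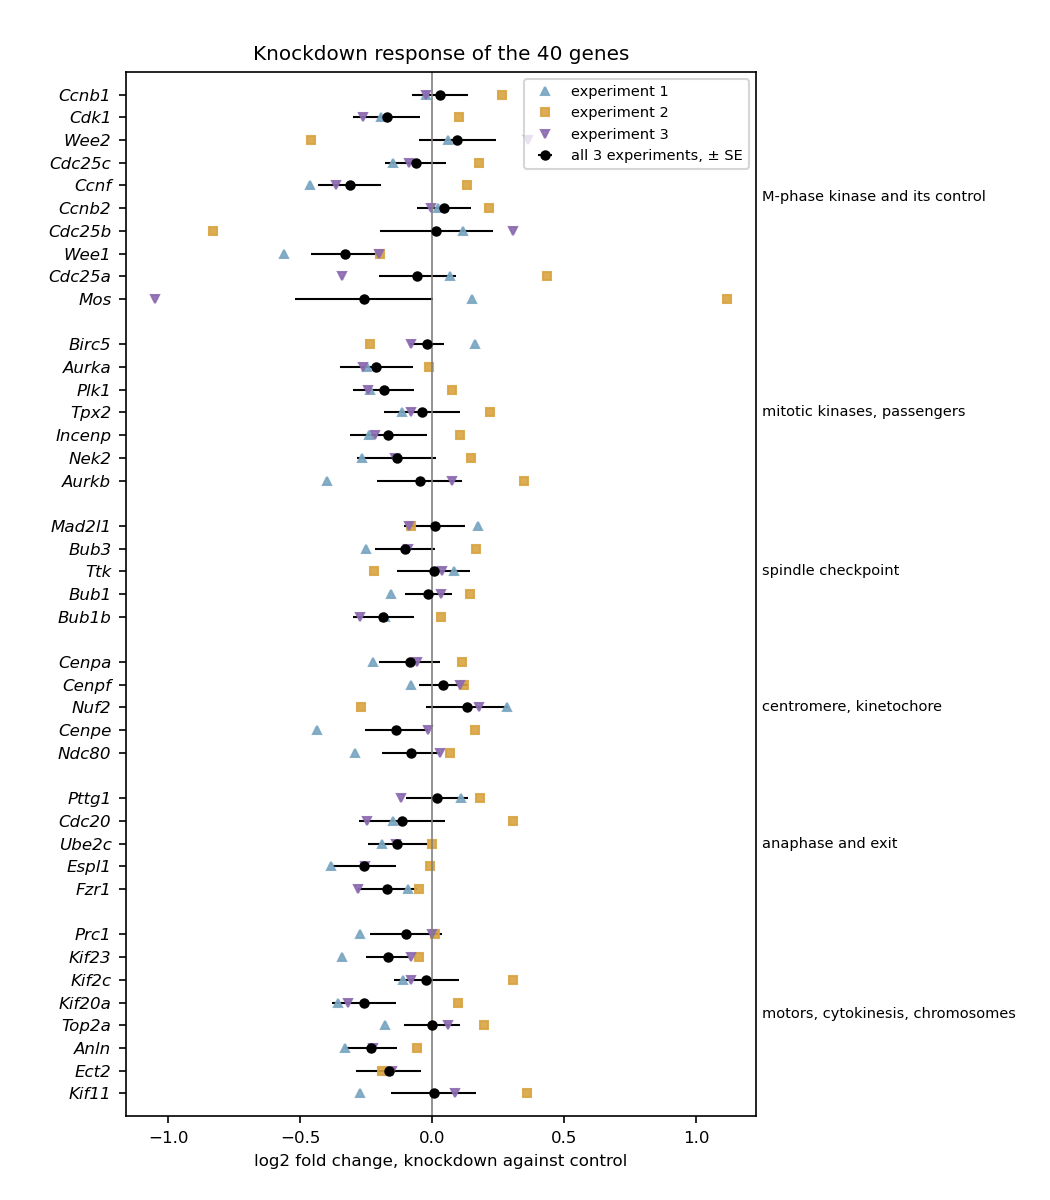
Log2 fold change of each gene, knockdown against control, over all 3 experiments (black, ± SE) and within each experiment (coloured symbols), grouped by role. Wee1 and Ccnf have the most negative black points at -0.33 and -0.31, and for 20 of the 40 genes experiment 2, with 7 control embryos, lies on the other side of 0 from experiments 1 and 3.

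Wee1, the kinase that restrains Cdk1, had the smallest p. Its median in experiments 1, 2 and 3 was 41.6, 23.4 and 28.8 CPM in control and 23.2, 23.9 and 24.8 CPM in knockdown embryos, with ranges of 12.1 to 90.6 and 3.48 to 91.4 CPM. The arms overlapped along nearly their whole range, and 36 of 55 knockdown embryos lay below the control median of their experiment. The log2 fold change was -0.33 (SE 0.13, edgeR adjusted p = 0.256), with -0.56, -0.20 and -0.20 in the 3 experiments.

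Cyclin F gave medians of 195, 354 and 221 CPM in control and 138, 339 and 186 CPM in knockdown embryos of experiments 1 to 3. Control embryos ran from 103 to 445 CPM and knockdown embryos from 11.5 to 455 CPM, an almost complete overlap at the upper end. The log2 fold change was -0.31 (SE 0.12, edgeR adjusted p = 0.257), and it was 0.13 in experiment 2 against -0.46 and -0.36 in the others. Anln, anillin of the cleavage furrow, had medians of 152, 209.6 and 177 CPM in control and 132, 151 and 162 CPM in knockdown embryos, with 40 of 55 below the control median of their experiment. Its log2 fold change was -0.23 (SE 0.10, edgeR adjusted p = 0.369). The other 3 were Espl1 (-0.26), Kif20a (-0.26) and Kif23 (-0.17), with adjusted p of 0.451, 0.451 and 0.475.

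By role, negative estimates were given by 6 of 10 genes of Cdk1 and its control, 7 of 7 mitotic kinases and passengers, 3 of 5 checkpoint genes, 3 of 5 centromere and kinetochore genes, 4 of 5 anaphase genes and 7 of 8 motors and cytokinesis genes. The median log2 fold change of these groups ran from -0.14 to -0.01. For the most abundant genes the estimates were small: Ccnb1 0.03 (SE 0.11), Pttg1 0.02 (SE 0.12), Cdc20 -0.11 (SE 0.16), Ube2c -0.13 (SE 0.11) and Cdk1 -0.17 (SE 0.13). Across the 3 experiments 8 of the 40 genes kept a negative estimate throughout and 0 a positive one. The share of all genes with such signs was not counted, here or by role. As many of the 40 varied together between embryos, their signs are not independent. Summed over the 40 genes, group means were 10359.5 and 9513 CPM in experiment 1, 12250.3 and 13103 in experiment 2, and 11706 and 11158 in experiment 3, control first. Mitochondrial transcripts, for comparison, summed to 67808 CPM in control and 91250 CPM in knockdown embryos of experiment 3, and their part in the estimates was not tested.

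Whether the response differed between experiments was tested by the interaction of arm and experiment. None of the 40 was called by edgeR (0 of 40, beside 0.0149% of all genes), and 1 had an unadjusted p under 0.05. This was Mos, the kinase upstream of MAP kinase in the metaphase II egg, with log2 fold changes of 0.15, 1.12 and -1.05 in experiments 1 to 3 (p = 0.00503, edgeR adjusted p = 0.627). Its medians were 5.30, 2.29 and 5.38 CPM in control and 5.12, 8.22 and 4.04 CPM in knockdown embryos. Control embryos reached 53.4 CPM, and 1 control embryo of experiment 2 had no Mos count, which at its depth allows up to 0.865 CPM (counting error only).

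At the level of transcripts, 0 of 123 transcripts of the 40 genes were called by edgeR (adjusted p under 0.05), where 0.321% of 25252 transcripts were. Before adjustment 11 of the 123 had p under 0.05, several of them of Kif23. The share of all transcripts with such a p was not counted. The smallest adjusted p was 0.136, for ENSMUST00000216812.1 of Kif23 at 4.87 ± 1.70 CPM in control (n = 56) and 3.59 ± 1.71 CPM in knockdown embryos (n = 55). The authors' deposited table holds 243 transcripts of these genes, of which 153 have an adjusted p; 0 of these are under 0.05, beside 0.376% of the 36432 transcripts with an adjusted p in that table. Its lowest value is for the same Kif23 transcript, a log2 fold change of -0.44 with adjusted p = 0.101 in the authors' deposited table.

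Beyond the 40, 156 further genes of the same machinery were counted in 7 lists, of which 152 were tested. Of these 2 were called, both lower, beside the 1.1% of all genes given above. Anapc2, the cullin subunit of the APC/C, was lower by a log2 change of -0.40 (SE 0.10, adjusted p = 0.0237 by edgeR) as the only called gene of 17 APC/C genes tested. Pkmyt1, the membrane-bound kinase that phosphorylates Cdk1 beside Wee1, had -0.38 (SE 0.10, edgeR adjusted p = 0.0363) as the only called gene of 21 cyclin and Cdk control genes.

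In the other lists none was called by edgeR: 0 of 14 genes of meiotic arrest and resumption (0 with unadjusted p under 0.05), 0 of 32 of the kinetochore and checkpoint (2), 0 of 25 of cohesin and condensin (7), 0 of 27 of the spindle and cytokinesis (2), and 0 of 16 regulators of late cell cycle transcription (2). Their smallest p belonged to Rps6ka3 (0.22, adjusted p = 0.672), Cenph (0.22, 0.301), Esco2 (-0.22, 0.338), Kifc1 (-0.17, 0.369) and Lin52 (-0.46, 0.369), given as edgeR log2 fold change and adjusted p. The median over the 152 was -0.03, beside 0.02 over all genes. Before adjustment 21 of the 152 had an edgeR p under 0.05, where 9.52% of all genes tested did.

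The 3 experiments differed more than the arms. With arm in the model, 22 of the 40 genes (55%) were called for a difference between experiments, where 32% of all genes were. The calls covered 4 of 5 anaphase genes, 5 of 8 motors and cytokinesis genes, 4 of 7 mitotic kinases and passengers, 5 of 10 genes of Cdk1 and its control, 3 of 5 checkpoint genes and 1 of 5 centromere and kinetochore genes. Experiment is known from the titles alone, with no date or operator, and mitochondrial sums also differed between experiments (control medians of 75706, 59382 and 67414 CPM). Their part in these differences was not tested.

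**Figure D3:**
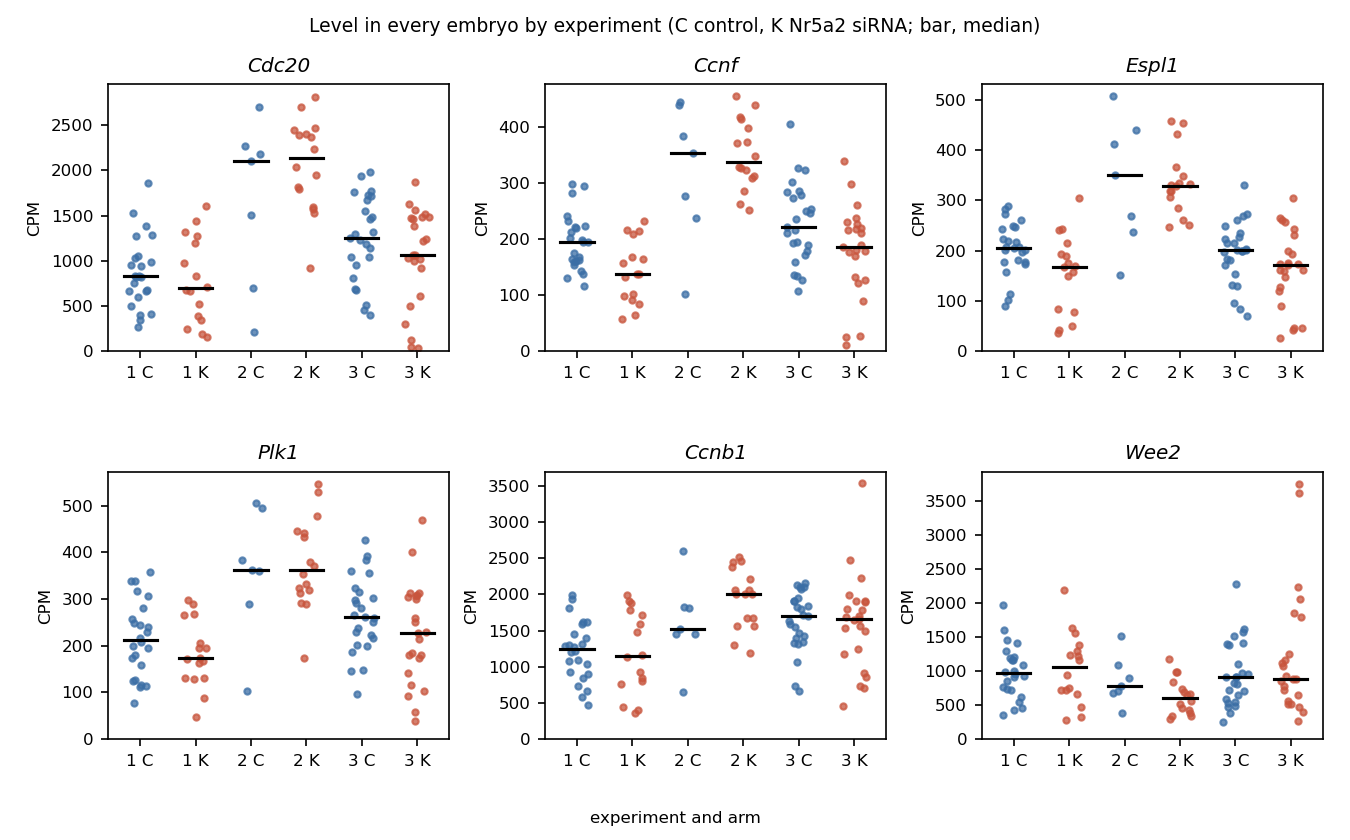
CPM of 6 genes in each embryo (56 control, 55 knockdown), by experiment (1 to 3) and arm (C control, blue; K Nr5a2 knockdown, red), with the group median as a bar; each vertical axis is linear and starts at 0. Cdc20, Ccnf, Espl1 and Plk1 are highest in both arms of experiment 2, with Cdc20 medians of 2101 and 2133 CPM there.

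Experiment 2 stood apart in the direction of higher levels. Against experiment 1, 14 of the 40 were higher there and 2 lower, beside 9.21% and 13.1% of all genes. Against experiment 3, 7 were higher in experiment 2 and 4 lower, where 7.89% of all genes were lower and 11.2% higher in experiment 3 than in experiment 2. Experiment 3 exceeded experiment 1 for 5 genes (Ccnb1, Ttk, Anln, Ect2 and Bub1) and was below it for Cdc25a, beside 4.93% and 8.77% of all genes.

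Cdc20 had the largest difference. Its medians were 830.4 and 698 CPM in control and knockdown embryos of experiment 1, 2101 and 2133 CPM in experiment 2, and 1254 and 1068 CPM in experiment 3. Both arms of experiment 2 had medians above every other group, although single embryos overlapped: control embryos spanned 217 to 2696 CPM and knockdown embryos 34.6 to 2814 CPM. Experiment 2 exceeded experiment 1 by 1.26 log2 units (SE 0.22), with an edgeR adjusted p = 2.87e-06.

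Ccnf, with the medians given above, was higher in experiment 2 than in experiment 1 by 1.09 on the log2 scale (SE 0.16, edgeR adjusted p = 2.93e-08). Separase (Espl1) had medians of 206 and 168 CPM in experiment 1, 349 and 329 CPM in experiment 2, and 200.5 and 171 CPM in experiment 3, control first. It was 0.95 higher on the log2 scale in experiment 2 than in experiment 1 (SE 0.16, edgeR adjusted p = 1.52e-06) and 0.96 lower in experiment 3 than in experiment 2 (log2 fold change -0.96, SE 0.15, edgeR adjusted p = 4.78e-07). Plk1, a kinase of entry, spindle and exit, had medians of 212 and 173, 363 and 362, and 262 and 227 CPM. Its log2 difference of experiment 2 over experiment 1 was 0.94 (SE 0.16, edgeR adjusted p = 1.37e-06).

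The other genes higher in experiment 2 than in experiment 1 were Nek2 (0.71 on the log2 scale), Incenp (0.70), Kif20a (0.66), Ccnb1 (0.59), Aurka (0.56), Anln (0.50), Bub1b (0.42), Ube2c (0.41), Fzr1 (0.40) and Kif23 (0.33). Cdc25a (-0.53) and Wee2 (-0.55) were lower. Ccnb1 medians were 1245 and 1149, 1526 and 2004, and 1698 and 1656 CPM in experiments 1 to 3, control first. Those of Ube2c were 583 and 505, 780.5 and 675, and 515 and 536 CPM. Cdk1 was not called (adjusted p = 0.449), with medians of 504 and 391, 545 and 499, and 548 and 470.4 CPM. Pttg1 (edgeR adjusted p = 0.166) had 471 and 467, 418 and 420.0, and 559.5 and 469 CPM.

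With the 56 control embryos alone, of which experiment 2 gives 7, 4 of the 40 were called, Ccnf, Plk1, Cdc20 and Espl1, where 14.9% of all genes were. Without the 4 embryos described next, 24 of the 40 were called, where 33.8% of all genes were.

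Embryos of the same group differed among themselves. The log2 CPM of the 40 genes deviated from the group mean by a root mean square of 0.557 in the median embryo. It exceeded 1.4 in 4 embryos: numbers 8, 5 and 15 of the knockdown embryos of experiment 3 (2.08, 2.07 and 1.64) and number 2 of the control embryos of experiment 2 (1.5). Their library totals of 2.16 to 4.93 M counts lay inside the range of the others. In these embryos the oocyte transcript score defined below was 7.42 to 8.71, where group means were 6.91 to 7.20. They were kept, and counts without them are given beside the results that moved.

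The 40 genes fell into a large set that varied together and a small set that ran against it. After removal of the group means, Pearson's r of log2 CPM over all embryos of both arms had a median of 0.36 over 780 pairs and ran from -0.80 to 0.91, with 507 pairs above 0. These values are descriptions, since pairs share libraries and the scaling. The 3 closest pairs were Kif11 and Kif2c (0.91), Nek2 and Prc1 (0.91), and Nek2 and Kif11 (0.90), genes of spindle assembly, microtubule turnover and the midzone. Cdk1 went most closely with its activating phosphatase Cdc25c (0.89) and with Cdc20 (0.88).

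**Figure D4:**
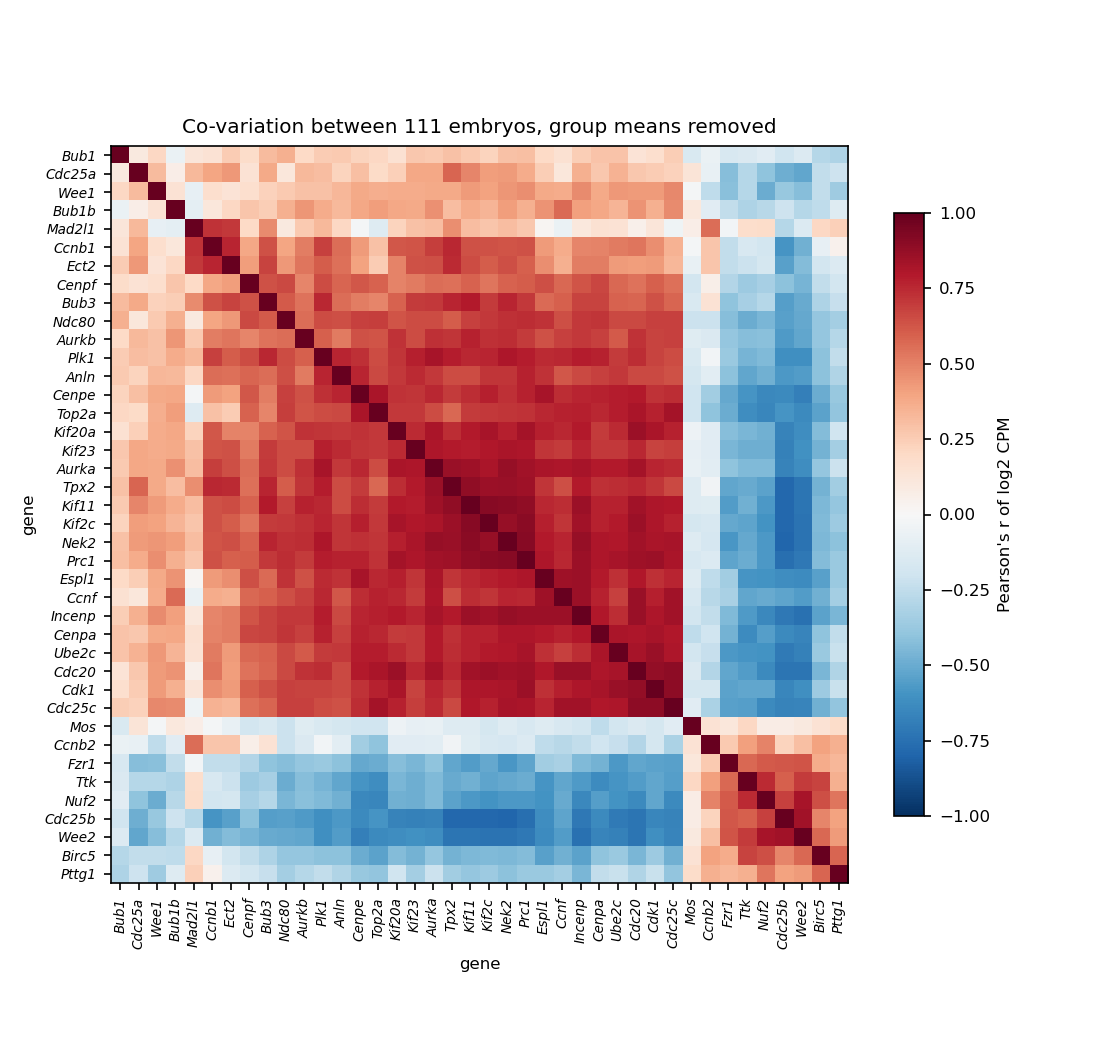
Pearson's r of log2 CPM between each pair of the 40 genes over all embryos (56 control, 55 knockdown), with the mean of each of the 6 groups removed; genes are ordered by average-linkage clustering of 1 - r. A red block of 31 genes stands against 9 genes (Mos, Ccnb2, Fzr1, Ttk, Nuf2, Cdc25b, Wee2, Birc5 and Pttg1), with r down to -0.80.

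For 31 genes the median r with the other 39 was above 0, highest for Nek2 (0.73), Prc1 (0.73), Espl1 (0.71), Kif2c (0.71) and Aurka (0.71). For 9 it was below 0: Cdc25b (-0.58), Wee2 (-0.56), Ttk (-0.46), Nuf2 (-0.46), Fzr1 (-0.41), Birc5 (-0.38), Pttg1 (-0.24), Mos (-0.13) and Ccnb2 (-0.11). The lowest single value was between Cdc25b and Nek2 (-0.80), while Cdc25b and Wee2, the phosphatase and the kinase that set meiotic arrest in the oocyte from opposite sides, went together (0.84). By arm, 8 of these 9 were below 0 in the 56 control embryos alone and 9 in the 55 knockdown embryos alone, and 31 of the other 31 were above 0 in each. In single groups 5 to 9 of the 9 were below 0, the fewest in the 24 control embryos of experiment 1, where Nuf2 (0.02), Ccnb2 (0.09), Mos (0.10) and Pttg1 (0.13) were above 0 and Wee1 of the larger set was below (-0.15). Without the 4 embryos far from their group 8 of the 9 stayed below 0. The split was made on these values, so it is described with no test.

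Promoter elements were counted in both sets. Of the 31 co-varying genes 25 had a matched promoter, and 20 of the 25 held a CHR. Of the 9 opposite genes 8 had one, and 3 of the 8 (Ccnb2, Cdc25b and Ttk) held a CHR. A CCAAT box was in 21 of the 25 and in 5 of the 8. As the sets were drawn after their values were seen, these are counts only.

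Genes of partner or related products did not always vary together. In all, 8 pairs were tested over the 56 control and 55 knockdown embryos with group means removed (100000 permutations within groups, two-sided, adjusted over the 8 pairs). Aurora A and its activator Tpx2 had r = 0.86 (Spearman's rho 0.77) and Aurora B and Incenp r = 0.71 (rho 0.53), each with a permutation p of 1e-05, the smallest these permutations can give (adjusted p = 2.67e-05 for both measures). They held without the 2 embryos farthest from the median of the first gene (0.84 and 0.71). Both pairs were positive in all 6 groups, from 0.71 to 0.97 for Aurka and Tpx2 and from 0.28 to 0.89 for Aurkb and Incenp. Neither partner was the closest gene: Aurka had its highest r with Nek2 (0.87) and Aurkb with Kif11 (0.77). The median r over all 780 pairs was 0.36. For all 8 pairs the test asks only whether r differs from 0, not whether partners are closer than other pairs.

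Ccnb1 and Cdk1 had r = 0.47 (permutation p = 3e-05, adjusted 4.8e-05) and rho = 0.69 (permutation p = 1e-05, adjusted 2.67e-05). Within groups r was 0.84, 0.92 and 0.65 in control and 0.60, 0.64 and 0.14 in knockdown embryos of experiments 1 to 3, the last group holding 3 of the 4 far embryos; without those 4 the pooled r was 0.70. Ccnb1 and Ccnb2, related cyclins rather than partners, were looser, with r = 0.28 (permutation p = 0.00522, adjusted 0.00597) and rho = 0.22 (permutation p = 0.0228, adjusted 0.026). In the 56 control embryos alone r was 0.27 and no longer passed (permutation test, adjusted p = 0.0609).

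The remaining pairs had a negative r over all embryos, which passed the test except for Bub1 and Bub1b. Aurkb and Birc5, subunits of 1 complex, had r = -0.39 (permutation p = 0.00018, adjusted 0.00024) and rho = -0.33 (permutation p = 0.00072, adjusted 0.00096), with r below 0 in all 6 groups. Ndc80 and Nuf2, which form a heterodimer at the kinetochore, had r = -0.46 (permutation p = 3e-05, adjusted 4.8e-05) and rho = -0.36 (permutation p = 0.0002, adjusted 0.00032), but r was above 0 in the control embryos of experiment 1 (0.02) and the knockdown embryos of experiment 2 (0.20). Wee1 and Wee2, related kinases rather than partners, had r = -0.42 (permutation p = 1e-05, adjusted 2.67e-05) and rho = -0.37 (permutation p = 0.00011, adjusted 0.00022). Their r was 0.42 among control embryos of experiment 1 and below 0 in the other 5 groups, and over the 56 control embryos together it was -0.01. Bub1 and Bub1b, paired checkpoint proteins, showed r = -0.07 (permutation p = 0.494, adjusted 0.494) and rho = -0.04 (permutation p = 0.708, adjusted 0.708).

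The spread between embryos was next compared with their transcripts of the 2-cell stage. Each embryo was given a 2-cell score, the mean log2 CPM of 26 measured genes of that stage, among them the Zscan4, Tdpoz and Usp17l families, and every gene was tested for a slope on it within the 6 groups. The score ran from 3.36 to 7.88 over the embryos. With rising score 19 of the 40 genes were lower and 2 higher (edgeR adjusted p under 0.05), beside 28.6% and 25.4% of all genes. The total of 21 of 40 is close to the share of all genes, so this count does not set the 40 apart. The score had r = -0.09 with log2 library total and 0.08 with the log2 mitochondrial sum over all embryos, group means removed.

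The steepest falls were those of Tpx2, Kif11 and Cdc25a, at -0.57 (SE 0.08, edgeR adjusted p = 8.13e-10), -0.57 (SE 0.09, adjusted p = 7.54e-08) and -0.55 (SE 0.07, adjusted p = 6.35e-10) log2 units per unit of score. Tpx2 ran from 74.8 to 628 CPM in control and 38.7 to 662 CPM in knockdown embryos, with group medians of 316, 296 and 367 and of 275, 365 and 348 CPM in experiments 1 to 3. Kif11 medians were 105, 79.0 and 102 CPM in control and 93.3, 112 and 107 CPM in knockdown embryos. Cdc25a, the phosphatase that frees Cdk1 and Cdk2 at low level here, had medians of 26.3, 17.9 and 19.7 CPM in control and 26.1, 17.3 and 14.1 CPM in knockdown embryos. Groups overlapped for all 3 genes.

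Ect2 (-0.48), Mad2l1 (-0.44), Nek2 (-0.40) and Ccnb1 (-0.37) came next. By role the falls took in 6 of 7 mitotic kinases and passengers and 7 of 8 motors and cytokinesis genes, but 2 of 10 genes of Cdk1 and its control and 0 of 5 centromere and kinetochore genes. Without the 4 far embryos this contrast between roles was smaller, with 6 of 7, 7 of 8, 5 of 10 and 4 of 5 lower (Cenpa, Cenpe, Cenpf and Ndc80 in the last). The 2 genes that were higher with the score were Cdc25b at 0.35 (SE 0.11, edgeR adjusted p = 0.00495) and Wee2 at 0.21 (SE 0.08, edgeR adjusted p = 0.0137). Cdc25b medians were 41.3, 57.4 and 31.7 CPM in control and 36.5, 28.4 and 31.8 CPM in knockdown embryos, and single embryos ran from 5.05 to 190.0 CPM. Those of Wee2 were 975, 784 and 916 CPM in control and 1061, 607 and 885 CPM in knockdown embryos, and the range was 258 to 3759.7 CPM.

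Leaving out the 4 far embryos, chosen after seeing the data, changed this count. Without them 33 of the 40 were called, 26 lower and 7 higher, where 66.6% of all genes were. All 21 genes called before were among them, with the slope of Cdc25b at 0.77 and that of Wee2 at 0.50, and Birc5, Fzr1, Nuf2, Pttg1 and Ttk were the others with a positive slope. Without experiment 1, 11 were called, where 40.3% of all genes were.

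**Figure D5:**
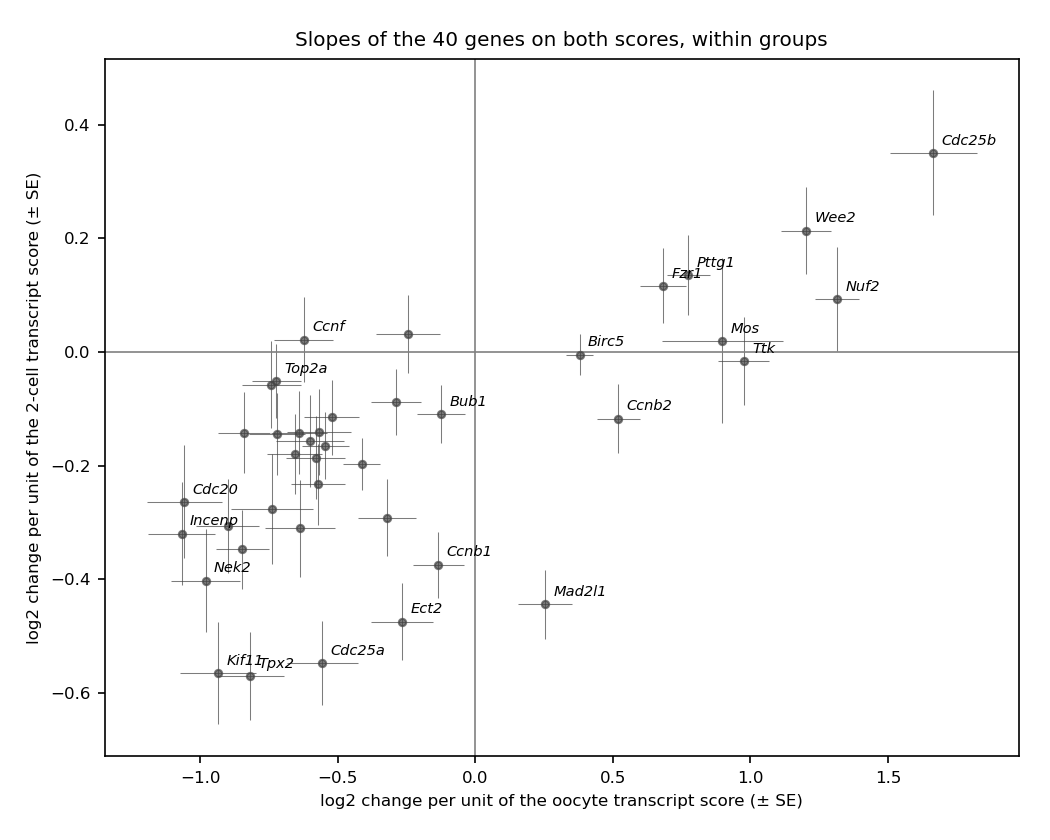
Slope of each of the 40 genes on the oocyte score (horizontal) and on the 2-cell score (vertical), in log2 units per unit of score within the 6 groups of embryos; bars are SE and named points are the genes described in the text. Cdc25b (1.66 and 0.35) and Wee2 (1.20 and 0.21) lie at the top right, and Tpx2 and Kif11 at the bottom left.

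A score of 39 oocyte transcripts, built the same way and added after the values above were seen, gave slopes that followed the same division among the genes called, except for Mad2l1. Score and division come from the same libraries, so this match is a description and not separate support for the division. With rising oocyte score 27 of the 40 genes were lower and 10 higher (edgeR adjusted p under 0.05), beside 33.5% and 34.3% of all genes. Ccnb1, Bub1 and Bub1b were not called. The score differed little between groups (means of 6.91 to 7.20, SD 0.35 to 0.68) and had r = 0.23 with the 2-cell score, 0.08 with log2 library total and 0.04 with the log2 mitochondrial sum.

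Higher with the score were Cdc25b at 1.66 log2 units per unit of score (SE 0.16, edgeR adjusted p = 6.67e-17), Nuf2 at 1.32 (SE 0.08, adjusted p = 8.09e-29), Wee2 at 1.20 (SE 0.09, adjusted p = 9.01e-23), Ttk at 0.97, Mos at 0.90, Pttg1 at 0.77, Fzr1 at 0.68, Ccnb2 at 0.52, Birc5 at 0.38 and Mad2l1 at 0.25. The first 9 are the genes of the opposite set above. Lower were all 8 motors and cytokinesis genes, 6 of 7 mitotic kinases and passengers and 4 of 5 centromere and kinetochore genes. Incenp (-1.07, SE 0.12, edgeR adjusted p = 1.88e-13), Cdc20 (-1.06, SE 0.14, adjusted p = 5.41e-11) and Nek2 (-0.98, SE 0.13, adjusted p = 2.91e-11) had the steepest falls.

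In all, 17 of the 40 genes were lower with both scores (Tpx2, Kif11 and Cdc25a among them), where 23% of all genes were. The 2 higher with both were Cdc25b and Wee2, beside 14.7% of all genes, and Mad2l1 was called in opposite directions, beside 2.15%. The APC/C activators parted: Cdc20 was lower and Fzr1 higher with the oocyte score. So did the kinases of Cdk1: Wee1 was at -0.57 (SE 0.12) and Wee2 at 1.20. Without the 4 far embryos 36 were called, 27 lower and 9 higher, where 63.0% of all genes were. Mad2l1 (0.08) and Bub3 (-0.23) were then not called and Ccnb1 (-0.25) was, and Cdc25b stood at 1.63 and Wee2 at 1.17.

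In all, 11 of the genes share exon bases with another annotated gene (GENCODE M21), and a library without strand cannot divide reads between them: Cdc25b with Spef1, Cdc25c with Gm3550, Plk1 with Gm44985, Nek2 with Gm38037, Cdc20 with Elovl1, Fzr1 with Mfsd12, Ube2c with Tnnc2, Kif20a with Cdc23 and Prc1 with Rccd1 on the other strand, and Ccnf and Top2a with a small RNA gene each on the same strand.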

How the data were processed

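Estimated counts per transcript were made by the authors with kallisto 0.46.1 after Trim Galore 0.6.2, per the submitters' processing notes. These notes also name the builds mm10 and hg19, the role of the latter not being given in the sources used here. The deposited table of the authors' own comparison holds a log2 fold change and an adjusted p-value for each transcript, made with DESeq2 1.32.0 per the submitters' processing notes; its sign (knockdown over control) was judged from the injected marker RNAs.

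Estimated counts were summed to 36134 genes with the deposited gene names and rounded. A median of 0.573% of counts per embryo had no gene. Genes were filtered with filterByExpr by arm, scaled by TMM and tested with edgeR 4.0.16's quasi-likelihood test (R 4.3.3), with experiment as covariate and Benjamini-Hochberg adjusted p under 0.05 as the call. DESeq2 1.42.0 was an alternative. Slopes on scores (mean log2 CPM, prior count 2) were fitted within the 6 groups, and the fit was tested on simulated data. Levels per kb used GENCODE M21 lengths. Group sizes and library totals stand in the opening of the results; intervals between embryos include counting error, which is largest for low genes.

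The 40 genes and the lists were chosen with earlier results of these data known. Genes given in all 6 groups are the 3 with the smallest knockdown p, the 5 highest and 3 lowest per kb, the 4 that differed most between experiments, and the steepest slopes on the 2-cell score (3 lower, and the 2 called higher). In the other lists, called genes or else the one with the smallest p are named. The oocyte score and the omission of 4 embryos were chosen after seeing the data. The authors' normalized, batch-corrected and filtered tables were not used here.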

Additional observations from a re-analysis of the deposited data

Results flagged for a closer look

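Among the 7 control embryos of experiment 2, embryo 2 stood far from the other 6 for 4 of the 40 genes (Dixon's test, gap over range above 0.568). It had the lowest Cdk1, at 81.6 CPM with the next embryo at 474 CPM, and the lowest Ube2c, at 113 CPM with the next at 695.5 CPM. It had the highest Ttk, at 259.6 CPM with the next at 142 CPM, and the highest Nuf2, at 121 CPM with the next at 64.0 CPM. Chance alone passes this limit in about 1 in 20 groups, and 40 were tested. The same embryo is among the 4 left out in the alternative counts, and its library total was 2.16 M counts.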

How the results depend on the processing

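No gene of the 40 was called for knockdown under any alternative run (DESeq2, other scalings, no filter on low counts, each experiment left out, the replicate block, and the 4 far embryos left out). Embryo numbers did not pair embryos: same-numbered embryos had a median r of 0.052 over 46 pairs, and 10 of 92 embryos were closest to their own number. With the replicate block 0 were called, and 0 without it on the same embryos. Differences between experiments were called for 4 genes in control embryos only. Slopes on the 2-cell score were called for 11 genes without experiment 1 and for 33 without the 4 far embryos, an alternative chosen after seeing the data. Without the filter on low counts 3 transcripts were called (of Cenpf, Nek2 and Ect2, with counts in 10, 22 and 5 embryos). In control embryos only, r of Ccnb1 with Ccnb2 was 0.27 and that of Wee1 with Wee2 was -0.00804, neither past the threshold; the cause was not tested.

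Of 400 recomputed knockdown fold changes, 73 changed sign, in 24 genes, none of them called and each within 0.26 of 0 (log2) at first. With DESeq2 it was Top2a 0.00466. With DESeq2's size factors it was Top2a 0.00465. With library totals as the scale these were Ccnb1 -0.00527, Ccnb2 -0.00168, Cdc25b -0.0502, Kif11 -0.0125, Mad2l1 -0.0357, Pttg1 -0.032 and Ttk -0.0583. Without the filter on low counts these were Cdc25b -0.00284 and Ttk -0.00219. Scaled on oocyte transcripts these were Aurkb 0.0121, Bub1 0.0194, Cdc25a 0.00915, Cdc25b -0.20, Cdc25c 0.0434, Cenpa 0.018, Kif2c 0.0485, Mad2l1 -0.0584, Nuf2 -0.0415, Prc1 0.0213, Pttg1 -0.0734, Top2a 0.0865, Tpx2 0.0359, Ttk -0.0923 and Wee2 -0.029. With the replicate block these were Ccnb1 -0.0106, Cdc25b -0.30, Kif11 -0.0787, Mad2l1 -0.0321, Mos 0.0242, Nuf2 -0.0926, Pttg1 -0.0646, Top2a 0.0281, Ttk -0.083 and Wee2 -0.0200. Without experiment 1 these were Aurkb 0.15, Bub1 0.0607, Cdc25b -0.0432, Cenpe 0.0313, Kif2c 0.0251, Mad2l1 -0.0923, Ndc80 0.0418, Prc1 0.00156, Pttg1 -0.0387, Top2a 0.0967, Tpx2 0.00338 and Ttk -0.0475. Without experiment 2 these were Birc5 0.0305, Ccnb1 -0.0211, Kif11 -0.0682 and Pttg1 -0.0163. Without experiment 3 these were Birc5 0.042, Cdc20 0.0129, Cdc25a 0.19, Cdc25b -0.19, Cenpf -0.00404, Kif11 -0.0578, Kif2c 0.0382, Mos 0.46, Tpx2 0.00562, Ttk -0.0083 and Wee2 -0.10. Without the 4 far embryos these were Aurkb 0.00365, Ccnb2 -0.018, Cdc25b -0.16, Kif2c 0.0267, Mad2l1 -0.0600, Pttg1 -0.0684, Top2a 0.0325, Tpx2 0.00949, Ttk -0.0658 and Wee2 -0.0232. The other 16 genes kept their sign in all 10 alternatives. Low counts limit Mos most.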
